A study of Homo sapiens with 9 samples.

Results

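HCT116, an established human colorectal cancer cell line, was reverse transfected with siRNA B against the long non-coding RNA SNHG5 or with a control siRNA, and the polyadenylated RNA of both was sequenced. The comparison rested on 6 libraries, 3 per group. Its genes were those of the deposited table of read counts scaled to the library total (CPM, reads per 1e6 reads) that reached at least 1 CPM in at least 3 of these 6 libraries, which kept 13729 of 15354 rows. The control group received a commercial non-targeting siRNA, and the libraries labelled siRNA B received 1 of a pair of siRNAs designed against SNHG5, each at 25 nM. The other siRNA of the pair, siRNA A, supplied 3 more libraries from the same line, which share the fit and serve below as a second comparison. All groups are transfections of 1 cell line grown in culture, and every change described is a change in the RNA of whole cultures, in which fewer cells of a kind and less RNA per cell cannot be told apart.

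An siRNA is loaded into an Argonaute protein and directs the cleavage of RNA that it pairs with along its length, while pairing through its seed alone can lower other transcripts. SNHG5 belongs to the snoRNA host genes, whose introns give rise to small nucleolar RNAs and whose spliced transcripts resemble those of ribosomal protein genes at their start. Colorectal cells of this kind keep an active WNT pathway, in which beta-catenin drives target genes such as AXIN2, and a working p53 response, in which the p53 protein raises genes of arrest and death such as CDKN1A and PMAIP1.

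The control libraries held 19313669 to 22050313 reads and those labelled siRNA B held 16340856 to 23277549 reads. A gene at 1 CPM therefore rested on 16.3 to 23.3 reads in these libraries. Values are given below for each library as deposited CPM, and group means ± SD are CPM after scaling by the trimmed mean of M values (TMM), with n = 3 libraries per group. Log2 fold changes and their standard errors (SE) were taken on log2(TMM-scaled CPM + 1) with limma, and a gene was called at an adjusted p under 0.05. All directions are relative to the TMM scale, on which the median log2 fold change of the genes tested was 0.0036. With the library totals alone that median was −0.19, so the whole distribution lay lower on that scale.

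Of the 13729 genes, 4722 were called (34.4%). Transcripts higher in the libraries labelled siRNA B numbered 2173 (15.8%) and lower ones 2549 (18.6%), against 954 and 4131 with the library totals alone. Large changes were mostly falls: 19 genes were called with a rise of over 3-fold (0.138%) and 63 with a fall of over 3-fold (0.459%). In 6566 genes (47.8%) the libraries labelled siRNA B all lay on the same side of the control libraries. Since the libraries come from cultures whose independence the labels do not state, the p-values measure the spread between these libraries.

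SNHG5 itself, on chromosome 6 (chr6:86360209-86388650, minus strand, GRCh37), did not show a lower count in these libraries. Its CPM was 35.6, 26.3 and 28.6 in the controls, against 47.8, 47.7 and 45.1 after siRNA B. All libraries labelled siRNA B lay above all controls, and the call was a rise, with a log2 fold change of 0.84 (SE 0.13, adjusted p = 5.8e-04). In the annotation used here, which need not be the one the authors counted on, the span overlaps the pseudogene PKMP3 and a same-strand readthrough gene. Reads of overlapping genes may have been divided between them or left uncounted, which was not tested. Whether the row counts the spliced transcript aimed at by the siRNA was not tested either. The level of the row thus went against the label as a knock-down, and the directions below belong to the libraries labelled siRNA B, not to a measured loss of SNHG5.

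The largest rise was that of HMOX1 (chr22:35776354-35790207, GRCh37), which encodes the heme oxygenase that breaks heme down to biliverdin, carbon monoxide and iron. It stood at 94.8, 29.3 and 72.7 CPM in the controls and at 779, 372 and 651 CPM after siRNA B, a log2 fold change of 3.47 (SE 0.37, adjusted p = 5.5e-05). Its level varied widely within each group, but the lowest siRNA B library was still far above the highest control. MALAT1, the abundant nuclear lncRNA, rose from 5924, 3011 and 4731 CPM to 14750, 17470 and 18400 CPM, by 2.15 on the log2 scale (SE 0.25). It took up 0.301% to 0.592% of all reads in the controls and 1.48% to 1.84% in the libraries labelled siRNA B. PARD6B, a subunit of the PAR polarity complex, rose from 22.0, 22.7 and 24.8 CPM to 100.7, 99.9 and 75.3 CPM (log2 fold change 2.14, SE 0.13). GDF15, a secreted stress cytokine, rose from 51.5, 47.2 and 45.3 CPM to 147.6, 248 and 154 CPM (2.08, SE 0.23). The groups lay apart in each of these genes, which the rule for choosing the largest changes required.

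The other genes among the 10 largest rises were chosen by the same rule. ARRDC3, an arrestin-domain adaptor, had a log2 fold change of 2.06, with TMM-scaled means of 39.3 ± 6.17 and 168.6 ± 40.6 CPM. SMIM15, a small membrane protein, gained 2.02, from 29.1 ± 0.527 to 121 ± 12 CPM, and varied little within either group. SEMA6A, a transmembrane semaphorin, gained 1.97, and CCN1, a matricellular protein and a target of YAP, gained 1.91. Low transcripts took part as well: CYP4F3, a fatty acid hydroxylase, rose from 1.82 ± 0.344 to 11.2 ± 0.794 CPM and EID3 from 1.17 ± 0.670 to 9.84 ± 2.62 CPM. Since EID3 overlaps TXNRD1, which has the same orientation, reads may have been divided between that pair or left uncounted.

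**Figure D1:**
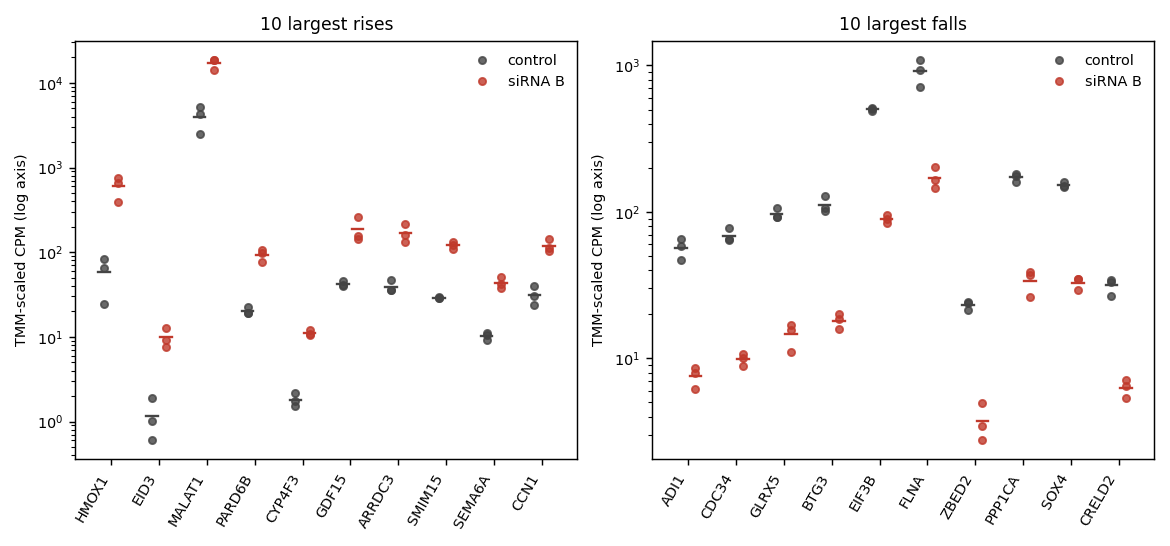
TMM-scaled CPM on a log axis for the 10 largest rises (left) and the 10 largest falls (right), with each of the 3 control libraries (grey) and each of the 3 libraries labelled siRNA B (red) as a point and the group mean as a bar. The groups do not overlap in any of these genes, which the rule for naming them required.

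The largest fall was that of ADI1 (chr2:3501137-3523302, GRCh37), the acireductone dioxygenase of the methionine salvage pathway. It stood at 66.3, 56.1 and 72.6 CPM in the controls and at 8.94, 7.53 and 6.10 CPM after siRNA B, a log2 fold change of −2.75 (SE 0.15, adjusted p = 5.6e-07). CDC34, a ubiquitin-conjugating enzyme that acts with SCF ligases, fell from 88.0, 78.0 and 71.1 CPM to 11.2, 8.45 and 9.92 CPM (−2.68, SE 0.13). GLRX5, the mitochondrial glutaredoxin of iron-sulfur cluster assembly, fell from 120.7, 109.7 and 102 CPM to 17.6, 10.5 and 15.4 CPM (−2.66, SE 0.15). The rule for the largest falls likewise required groups apart, and in these genes the siRNA B libraries lay far below the controls. BTG3, an anti-proliferative factor, fell by 2.56 on the log2 scale and ZBED2, a zinc finger factor, by 2.37.

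Several falling genes encode core parts of the cell. EIF3B, a scaffold subunit of translation initiation factor eIF3, fell from 582, 582 and 559 CPM to 93.2, 89.8 and 82.8 CPM (−2.47, SE 0.11, adjusted p = 4.3e-07). FLNA, the actin cross-linker filamin A, fell from 812, 1306 and 1033 CPM to 171, 190.6 and 142 CPM (−2.41, SE 0.17). PPP1CA, a catalytic subunit of protein phosphatase 1, fell by 2.33 from a mean of 172.6 ± 11.1 CPM. SOX4, an HMG-box transcription factor, fell by 2.19 from 152.9 ± 6.49 CPM, and CRELD2, an endoplasmic reticulum protein, by 2.15 from 31.5 ± 4.13 CPM. EIF3B overlaps SNX8, CRELD2 overlaps ALG12 and PPP1CA overlaps RAD9A on the opposite strand, and the use of strand in counting is not stated.

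The remaining subunits of complexes that hold such a gene are given beside the 15.8% of all genes called higher and 18.6% called lower, and with so few subunits nothing is read from their counts. The families given here were picked after the values of their falling members had been seen. Of the 13 eIF3 subunits, 12 others lay between −0.23 and 0.69, with 5 called higher and 0 lower, among them EIF3L (0.69) and EIF3H (0.53). CCT3, a subunit of the TRiC chaperonin that folds actin and tubulin, fell from 839.9, 836 and 763 CPM to 219, 160.5 and 207 CPM (−1.85, SE 0.11), whereas the 7 others ranged from −0.59 for CCT2 to 0.49 for CCT8, with 3 called higher and 2 lower. RPA1, the large subunit of the single-strand DNA binding complex, fell by 1.71 (SE 0.11) from 194 ± 16.1 to 58.9 ± 5.23 CPM, while RPA2 rose by 0.44 and RPA3 stood at 0.18 without a call.

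Relatives of other falling genes are given in the same way. PSMC5, an ATPase of the proteasome, fell by 1.19 from 179 ± 19.2 to 78.5 ± 11 CPM, and the 5 other ATPase subunits lay between 0.11 and 0.76. AGO1, an Argonaute, fell by 1.37 from 78.0 ± 14.7 to 29.4 ± 2.81 CPM, with AGO2 at 0.14 and AGO4 at 0.13 without a call and AGO3 higher by 0.71. PPP1CB and PPP1CC, the sister subunits of PPP1CA, stood at −0.31 and 0.10, neither called. HK1, the widespread hexokinase, fell by 1.77 from 63.7 ± 7.37 to 17.9 ± 1.59 CPM and HK2 by 0.57, while HKDC1 stood at 0.52 without a call. ACTN4, an actinin, fell by 1.48 from 829.9 ± 42.3 to 296 ± 11.1 CPM, while ACTN1 stood at 0.09 and was not called.

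A total of 47 gene lists were then described, each by how many of its tested members were called and by its median log2 fold change, to be read against the 15.8% higher, 18.6% lower and median of 0.0036 over all genes. These shares differed with level. Of the 3432 genes with the highest mean CPM, 28.8% were called higher and 13.9% lower. Of the 3433 with the lowest, 7.63% were called higher and 16.5% lower. How far the counts of a list follow the level of its members was not tested. The median of a list with the library totals alone is given beside it.

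**Figure D2:**
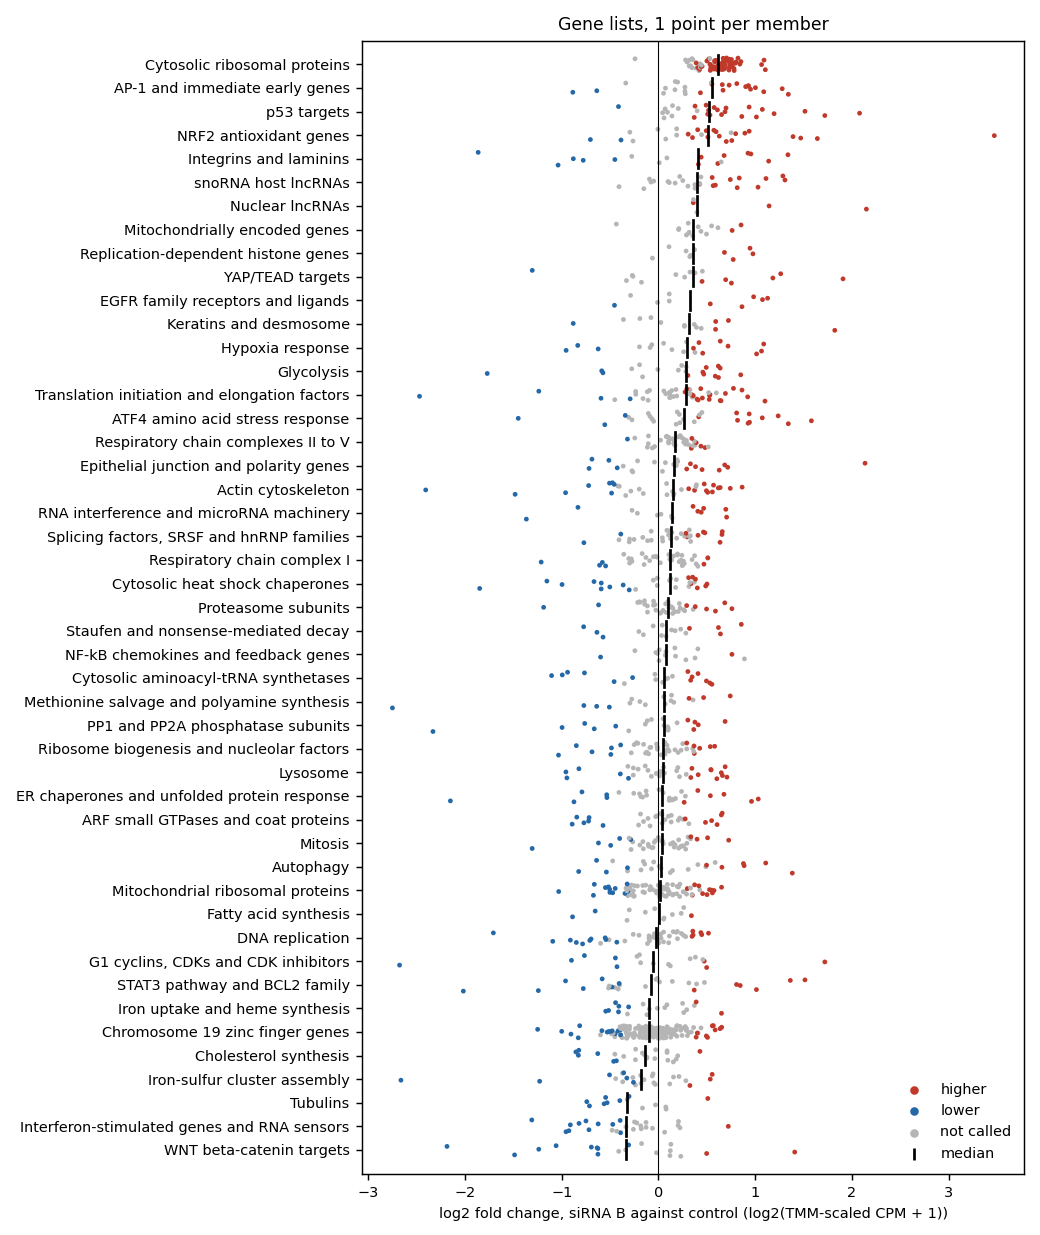
Log2 fold change of siRNA B against control (TMM scale) for every tested member of the 47 gene lists, 1 point per gene, red for called higher, blue for called lower and grey for not called, with the list median as a black bar. Cytosolic ribosomal proteins have the highest median (0.62), and WNT beta-catenin targets, interferon genes (both −0.34) and tubulins (−0.32) the lowest.

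Antioxidant genes under the transcription factor NRF2 were higher as a group. Of 27 tested, 17 rose and 2 fell, with a median of 0.51 (0.30 with totals alone, where 11 rose and 4 fell). The ferritin subunits that store iron rose together: FTL from 1224, 1025 and 1002 CPM to 2776, 2174 and 2854 CPM (1.47, SE 0.16) and FTH1 from 687, 627 and 726 CPM to 1867, 2099 and 1565 CPM (1.64, SE 0.15). No control library reached the level of any siRNA B library. FTH1 overlaps BEST1 on the opposite strand, whose reads may be mixed with it. Glutathione synthesis was represented by GCLM, the modifier subunit of glutamate-cysteine ligase, which rose from 98.2, 68.3 and 91.0 CPM to 221, 161 and 204 CPM (1.39, SE 0.17), and by its partner GCLC (0.51). NFE2L2, which encodes NRF2 itself, rose by 0.80, the quinone reductase NQO1 by 0.89 and the cystine carrier SLC7A11 by 0.94. The members that fell were BLVRB, a biliverdin reductase (−0.70), and BACH1, a repressor of HMOX1 (−0.39). TXNRD1, the thioredoxin reductase that contains EID3, stood at −0.01 and KEAP1, the inhibitor of NRF2, at 0.19, neither called.

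The NRF2 element, the letters TGACNNNGC on either strand, was looked for in the RefSeq promoter windows of build GRCh38.p14, which run from 250 bases before to 50 bases after a gene's start. It was present in 13.6% of the 27305 windows and in 15.2% of the 10160 of genes tested. A window was found for 19 of the 27 NRF2 genes tested, a smaller part than for the lists whose shares are given below, so no share is read. Among these genes, matches lay in the windows of GCLM, ME1, TXNRD1 and PGD, of which TXNRD1 and PGD were not called. The stretches with a match are shown for a glutathione gene and for the malic enzyme gene ME1, which rose by 0.31, with the element in capitals.
GCLM, chr1:93909441-93909490, minus strand: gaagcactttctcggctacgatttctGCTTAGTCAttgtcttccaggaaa
ME1, chr6:83431162-83431211, minus strand: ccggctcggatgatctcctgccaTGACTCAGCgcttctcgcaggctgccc
A match is a description of the letters in these windows and no measure of binding.

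Genes of iron uptake and heme synthesis did not rise with HMOX1 and ferritin. Of 19 tested, 2 rose and 6 fell, with a median of −0.09 (−0.29 with totals alone). ALAS1, the rate-limiting enzyme at the entry of heme synthesis, rose by 0.65 (SE 0.16), from 72.9 ± 5.32 to 115.6 ± 15.6 CPM. Of the later enzymes, FECH, the ferrochelatase that inserts iron, fell by 0.54. UROD stood at −0.44 and was called, but lost its call without control replicate 1, without control replicate 2 and without siRNA B replicate 2 (adjusted p up to 0.15). Among 25 genes of iron-sulfur cluster assembly, 3 rose and 6 fell, with a median of −0.18 (−0.39 with totals alone). The count was not stable: 3 or 4 fell whichever library was left out. The median was 0.01 without siRNA B replicate 2. Beside the fall of GLRX5, HSPA9, the mitochondrial chaperone of the pathway, rose by 0.54.

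Targets of p53 were higher in the libraries labelled siRNA B. Of 28 tested, 19 rose and 1 fell, with a median of 0.53 (0.32 with totals alone, where 12 rose and 1 fell). CDKN1A, the p21 inhibitor of cyclin-dependent kinases, rose from 220, 219 and 204 CPM to 641, 609 and 586 CPM (1.72, SE 0.11, adjusted p = 1.6e-06). PMAIP1, the BH3-only death protein NOXA, rose from 108, 95.0 and 108 CPM to 265, 301 and 211 CPM (1.52, SE 0.15). The groups did not overlap in either gene. GADD45A rose by 1.20, the sestrin SESN1 by 1.07, and BBC3, which encodes PUMA, by 1.01. Receptors of extrinsic death rose by less, TNFRSF10B by 0.70 and FAS by 0.65. MDM2, the ligase that degrades p53, stood at 0.04 and was not called. The call of a fall came from TP53INP1 (−0.41) and was lost without control replicate 2, control replicate 3, siRNA B replicate 1 or siRNA B replicate 3 (adjusted p up to 0.16).

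Immediate early genes and their AP-1 factors also rose. Of 26 tested, 14 rose and 2 fell, with a median of 0.55 (0.34 with totals alone, where 10 rose and 2 fell). The AP-1 subunits FOSL2 (1.28, SE 0.25), FOSL1 (0.95), JUND (0.93), JUNB (0.93), JUN (0.90) and FOS (0.67) were all called. ATF3, a stress-induced partner of JUN, rose from 30.9, 15.9 and 24.7 CPM to 63.2, 45.7 and 48.5 CPM (1.34, SE 0.29). EGR1 rose from 82.8, 101 and 114 CPM to 188, 192 and 167 CPM (1.09, SE 0.16), and IER3 by 1.0. In all 3 genes each siRNA B library exceeded every control. DUSP6, a phosphatase that opposes ERK, fell from 122.6 ± 7.80 to 65.9 ± 3.35 CPM (−0.89, SE 0.13), and EGR3 by 0.64.

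**Figure D3:**
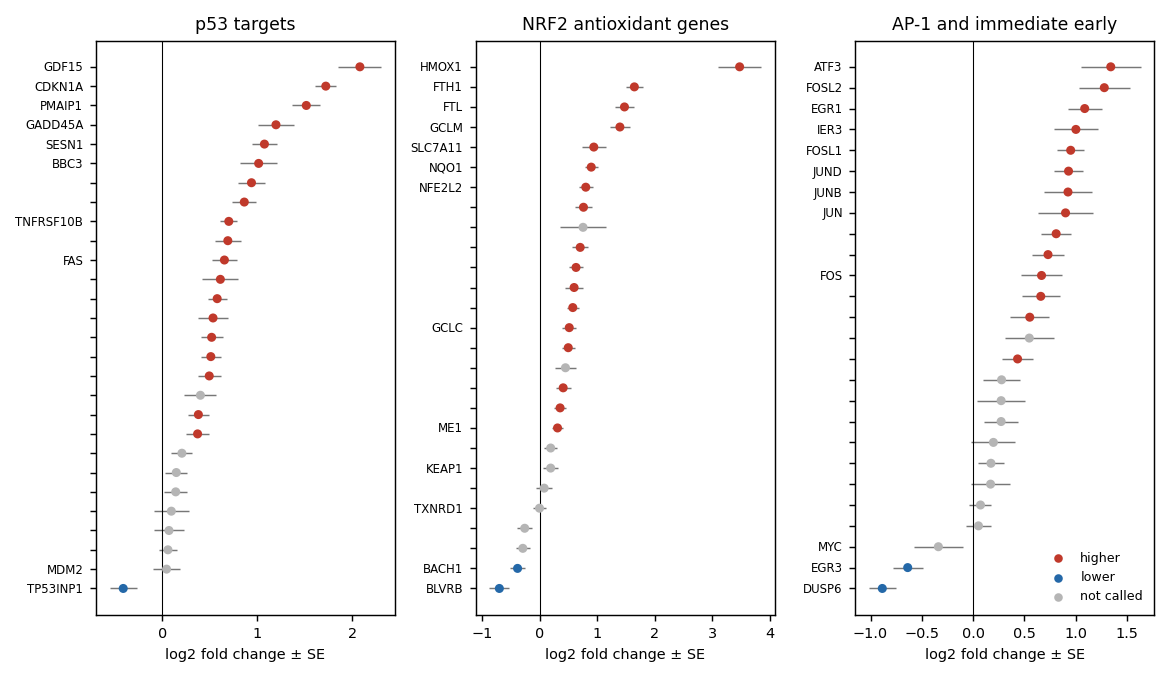
Log2 fold change of siRNA B against control with its SE for the tested members of the p53, NRF2 and AP-1 lists, with names for those the text gives, red for called higher, blue for called lower and grey for not called. In each list most members lie to the right of 0, with 19, 17 and 14 called higher.

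Ligands of the EGF receptor and targets of YAP had more rises than falls. Of 10 tested genes of the EGFR family, 5 rose and 1 fell, with a median of 0.32 (0.11 with totals alone). EREG, which encodes the ligand epiregulin, rose from 730.2, 805 and 838 CPM to 1548, 1676 and 1144 CPM (1.08, SE 0.15), and HBEGF rose by 0.98. ERRFI1, a feedback inhibitor of the receptor, rose by 1.13 and EGFR itself by 0.54. AREG stood at 0.86, and its call was lost without control replicate 2 or control replicate 3 (adjusted p up to 0.075). The fall of BTC (−0.45) held its call in only 1 of the 6 fits that left out a library. Of 16 targets of YAP and TEAD, which read out cell tension and density, 6 rose and 1 fell, with a median of 0.35 (0.14 with totals alone, where 5 rose and 4 fell). Beside CCN1, CCN2 rose from 6.69 ± 2.19 to 16.4 ± 4.60 CPM (1.18, SE 0.22) and the nucleotidase NT5E by 1.26, while WWC1, an upstream Hippo protein, fell by 1.3 from 126 ± 8.42 to 50.5 ± 2.14 CPM.

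In the ATF4 amino acid response, stress factors were higher and some biosynthetic enzymes lower. Of 27 tested, 10 rose and 3 fell, with a median of 0.26 (0.05 with totals alone, where 9 rose and 5 fell). ATF4 itself rose from 222, 183 and 192 CPM to 393, 255 and 346 CPM (0.93, SE 0.14). The stress factor DDIT3, which overlaps MARS1 on the opposite strand, rose from 41.1, 20.1 and 31.9 CPM to 94.4, 64.0 and 81.6 CPM (1.58, SE 0.23), and the leucine sensor SESN2 by 1.24. The eIF2alpha phosphatase subunit PPP1R15A rose by 1.07. Of the enzymes of serine and proline metabolism, PHGDH fell from 46.9, 37.1 and 40.2 CPM to 15.2, 9.48 and 13.2 CPM (−1.45, SE 0.17). ALDH18A1 fell by 0.55 and SHMT2 by 0.34. ASNS, which makes asparagine, and CHAC1 stood at 0.18 and 0.37 without a call.

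The aminoacyl-tRNA synthetases, which charge tRNAs and are often raised with ATF4, moved both ways. Of 20 tested, 7 rose and 6 fell, and the median was 0.06 (−0.15 with totals alone, where 2 rose and 7 fell). The rising count was 4 without control replicate 2, 3 without siRNA B replicate 1 and 4 without siRNA B replicate 3. QARS1 fell by 1.10 from 147 ± 3.09 to 68.5 ± 10.6 CPM, RARS1 by 0.99, WARS1 by 0.94 and VARS1 by 0.76. AARS1 rose by 0.55 and TARS1 by 0.41. The amino acid response element, the letters TGATGNAA on either strand, lay in 37.5% of the 16 synthetase windows found. It lay in 22.7% of the 22 windows of ATF4 response genes. The share was 3.67% of all windows and 1.65% of the 10160 of genes tested. Matches are shown for a pair of synthetase genes called higher, AARS1 and MARS1 (0.35), with the element in capitals.
AARS1, chr16:70289667-70289716, minus strand: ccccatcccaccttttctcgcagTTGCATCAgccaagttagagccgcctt
MARS1, chr12:57488028-57488087, plus strand: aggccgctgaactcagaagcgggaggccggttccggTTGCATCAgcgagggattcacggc
Of the synthetase windows, 3 of the 5 of genes called higher and 0 of the 4 of genes called lower held these letters. Of the windows of the ATF4 list, 1 of the 8 of genes called higher (12.5%) and 0 of the 2 of genes called lower did.

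Chaperones of the endoplasmic reticulum, the site of folding of secreted proteins, did not move together. Of 28 tested, 6 rose and 5 fell, with a median of 0.04 (−0.17 with totals alone, where 3 rose and 9 fell), and 3 rose without control replicate 2. CANX, the membrane lectin chaperone calnexin, rose from 859, 934 and 904 CPM to 1593, 1657 and 1307 CPM (0.96, SE 0.13). Its soluble relative CALR, calreticulin, fell from 1184, 1213 and 1170 CPM to 635, 483 and 570.2 CPM (−0.87, SE 0.10). In both genes the groups lay apart, in opposite directions. HSPA5, the chaperone BiP, stood at 0.54 (SE 0.18, adjusted p = 0.039) and XBP1 at 0.01 without a call. The endoplasmic reticulum stress element lay in 23.1% of the 26 windows of the list, against 0.0806% of all windows and 0.128% of the 10160 of genes tested. It is shown in capitals for HSPA5, called higher, and for CALR and CRELD2, called lower.
HSPA5, chr9:125241374-125241433, minus strand: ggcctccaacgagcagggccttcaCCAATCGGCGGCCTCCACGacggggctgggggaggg
CALR, chr19:12938360-12938419, plus strand: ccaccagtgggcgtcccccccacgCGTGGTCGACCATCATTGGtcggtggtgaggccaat
CRELD2, chr22:49918529-49918588, plus strand: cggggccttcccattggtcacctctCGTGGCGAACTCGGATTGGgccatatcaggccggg
The letters thus occurred in windows of genes called in either direction.

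Among the 27 cytosolic heat shock chaperones tested, 7 rose and 9 fell, with a median of 0.12 (−0.10 with totals alone, where 1 rose and 10 fell). Beside CCT3, the inducible HSP70 gene HSPA1B fell from 226, 179 and 164 CPM to 89.2, 46.6 and 90.3 CPM (−1.15, SE 0.22). HSPA1A, its near-identical copy, fell by 0.67, though reads of such copies may have been divided between them or left uncounted. The co-chaperone DNAJB1 fell by 1.0 and the factor HSF1, which drives these genes, by 0.59. HSPA8 and HSP90AA1, the abundant HSP70 and HSP90, stood at −0.05 and 0.33 without a call. The rises were small, 0.50 at most in DNAJB4, which lost its call without control replicate 2 or siRNA B replicate 1 (adjusted p up to 0.071). The rising count was 4 without control replicate 2, 4 without control replicate 3, 3 without siRNA B replicate 1 and 3 without siRNA B replicate 3.

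Of the 47 lists, the cytosolic ribosome had the largest share of members called higher. Of 78 tested, 62 rose and 0 fell, with a median of 0.62 (0.41 with totals alone, where 35 rose and 1 fell). Without control replicate 2 the number that rose was 39. Together these genes took up 1.95% to 2.47% of all reads in the controls and 2.37% to 3.02% in the libraries labelled siRNA B, ranges that overlapped on this unscaled measure. RPL13A, whose introns hold snoRNAs, rose from 356, 248 and 270.4 CPM to 584, 465 and 565 CPM (1.11, SE 0.16). RPS27 rose from 7.39, 6.11 and 5.83 CPM to 12.5, 14.9 and 11.5 CPM (1.09, SE 0.20), RPL41 by 1.07 and RPS18 by 0.85. RPS6 was the lowest member, at −0.24 without a call. Many of these genes have processed pseudogenes of nearly the same sequence, so reads may have been divided between them or left uncounted, and their levels are uncertain.

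Ribosomal protein transcripts begin with a C within a run of pyrimidines, the TOP motif through which their translation is controlled. The letters CTTTC on the sense strand were searched from 20 bases before to 30 bases after the start. They were chosen after the rise had been seen. They lay in 50.8% of the 63 ribosomal protein windows found and in 6.06% of the 66 windows of mitochondrial ribosomal proteins. The letters lay in 6.18% of all windows and in 5.12% of the 10160 of genes tested. They lay in 2 of the 22 windows of snoRNA hosts (9.09%) and in 3 of the 37 of translation factors (8.11%), none of them among the 12 of translation factors called higher. The 40 bases around the start are shown for 5 members and for ZFAS1, 1 of the 2 snoRNA hosts with a match, all called higher, with the matches in capitals.
RPS27, chr1:153990742-153990781, plus strand: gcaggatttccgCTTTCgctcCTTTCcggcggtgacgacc
RPL41, chr12:56116613-56116652, plus strand: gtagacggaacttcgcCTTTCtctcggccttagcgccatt
RPLP1, chr15:69452798-69452837, plus strand: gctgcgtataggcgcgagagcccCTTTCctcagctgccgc
RPS3, chr11:75399498-75399537, plus strand: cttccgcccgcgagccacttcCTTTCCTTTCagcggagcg
RPL28, chr19:55385912-55385951, plus strand: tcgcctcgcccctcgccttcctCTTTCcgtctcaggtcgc
ZFAS1, chr20:49278622-49278661, plus strand: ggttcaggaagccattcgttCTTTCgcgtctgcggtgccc

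The snoRNA host lncRNAs, the class of SNHG5, rose alongside. Of 26 tested, 11 rose and 0 fell, with a median of 0.40 (0.19 with totals alone, where 9 rose and 2 fell). SNHG29 rose from 474, 362 and 388 CPM to 944, 772 and 892 CPM (1.31, SE 0.13), ZFAS1 from 114, 70.5 and 72.1 CPM to 203, 139.8 and 195 CPM (1.29, SE 0.20) and SNHG32 by 1.11. SNHG1 rose by 1.03 and GAS5 by 0.81, beside 0.84 for the row of SNHG5, whose span overlaps other genes in the annotation used here. Factors of translation initiation and elongation counted 18 risen and 4 fallen of 46, with a median of 0.28 (0.07 with totals alone, where 9 rose and 9 fell). Without control replicate 2, 11 rose. EEF1A1, the elongation factor that brings tRNA to the ribosome, rose from 314, 294 and 305 CPM to 578, 567 and 547 CPM (1.10, SE 0.18), and EIF2S3 by 0.92. EIF4G1, the scaffold that joins the cap to the ribosome, fell by 1.24 from 709 ± 119.9 to 298 ± 21.7 CPM.

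The mitochondrial ribosome had about as many calls in each direction on the TMM scale. Of its 75 genes tested, 11 rose and 12 fell, with a median of 0.02 (−0.20 with totals alone, where 4 rose and 26 fell), and 6 rose without control replicate 2. MRPL41 fell by 1.03. Ribosome biogenesis factors counted 6 risen and 6 fallen of 40 (median 0.05, −0.16 with totals alone), among them BOP1 at −1.03 and the polymerase I subunit POLR1E at 0.58. Of 37 complex I subunits, 2 rose and 4 fell (median 0.12, −0.09 with totals alone), with NDUFAB1, the acyl carrier subunit, lowest at −1.21. Complexes II to V counted 5 risen and 1 fallen of 37 (median 0.17, −0.04 with totals alone). The rising counts of these small sets hung on single libraries: without siRNA B replicate 2 they were 7 for complex I and 12 for complexes II to V, and without control replicate 2 they were 0 and 1, with 3 for ribosome biogenesis. Among the 15 mitochondrially encoded genes, 2 rose and 0 fell (median 0.36, 0.14 with totals alone). These took up 16.3%, 14.9% and 18.7% of reads in the controls and 16.3%, 22.4% and 18.1% in the libraries labelled siRNA B, of which the second stood above the rest.

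Several later enzymes of glycolysis were higher, and the hexokinases HK1 and HK2 were lower. Of 20 genes, 9 rose and 3 fell, with a median of 0.29 (0.07 with totals alone, where 4 rose and 5 fell). GAPDH rose from 2587, 2248 and 2226 CPM to 4027, 3260 and 3715 CPM (0.85, SE 0.15). ALDOA rose by 0.62, ENO1 by 0.59, PGK1 by 0.49 and LDHA by 0.46. PGAM1 stood at 0.64 and lost its call without control replicate 3, siRNA B replicate 1 or siRNA B replicate 3 (adjusted p up to 0.096). The members that fell were HK1 (−1.77), HK2 (−0.57) and PFKFB3 (−0.59), a pair of hexokinases and an enzyme that sets the rate of phosphofructokinase. Of 19 genes of the hypoxia response, 8 rose and 3 fell (median 0.29, 0.09 with totals alone), and 5 rose without control replicate 2 and 5 without siRNA B replicate 1. P4HA1, a collagen hydroxylase, rose by 1.09, the mitophagy receptor BNIP3L by 1.07 and adrenomedullin, ADM, by 1.02. EGLN1, the oxygen sensor that marks HIF for decay, fell by 0.95 from 60.3 ± 3.88 to 30.6 ± 1.15 CPM, and HIF1A stood at −0.09 without a call.

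WNT targets had one of the lowest list medians, −0.34 (−0.55 with totals alone), next to −0.34 for interferon genes and −0.32 for tubulins, and the order of the 3 changed with the library left out. Of 19 tested, 9 fell and 2 rose on either scale, and 6 to 9 fell when a library was left out. AXIN2, the feedback scaffold that is read as a gauge of the pathway, fell from 14.2, 17.4 and 16.6 CPM to 4.96, 4.28 and 3.69 CPM (−1.49, SE 0.23, adjusted p = 5.3e-04). NKD1, a feedback inhibitor, fell from 5.90, 7.09 and 7.13 CPM to 1.62, 1.96 and 2.06 CPM (−1.24, SE 0.14). In AXIN2, NKD1 and SOX4 every control lay far above every siRNA B library. SOX9 fell by 1.06, the receptor ligase RNF43 by 0.69 and the WNT deacylase NOTUM by 0.63. CTNNB1, which encodes beta-catenin and stood in the list of junction genes, fell from 265, 336 and 307 CPM to 184, 143 and 149 CPM (−0.72, SE 0.13). Against the list, the secreted inhibitor DKK1 rose from 178, 178 and 175 CPM to 472, 424 and 337 CPM (1.41, SE 0.19) and CCND1 rose by 0.50. MYC stood at −0.34 and CD44 at −0.02, neither called.

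Interferon-stimulated genes and RNA sensors, which respond to interferon and to double-stranded RNA, were lower. Of 27 tested, 11 fell and 1 rose, with a median of −0.34 (−0.50 with totals alone, where 18 fell and 1 rose). The sensors themselves fell: IFIH1, which encodes MDA5, from 6.89, 8.28 and 6.46 CPM to 2.45, 2.26 and 3.82 CPM (−0.93, SE 0.16), RIGI by 0.82 and TLR3 by 0.75. USP18, a brake on interferon signalling, fell from 2.99, 3.88 and 3.23 CPM to 0.695, 0.490 and 0.558 CPM (−1.31, SE 0.15), and OAS3 by 0.91. These transcripts were scarce, and with genes kept only at 5 CPM or more 16 were tested, of which 5 fell and 0 rose. ISG15 stood at −0.18 without a call, and IRF9 rose by 0.72 from 0.845 ± 0.177 to 2.06 ± 0.473 CPM. Of 15 NF-kB targets, 1 rose and 1 fell (median 0.08, −0.13 with totals alone), the fall being that of the cytokine LIF (−0.60). The rise was that of the inhibitor gene NFKBIA (0.76, SE 0.26), whose call was lost in 5 of the 6 fits that left out a library (adjusted p up to 0.18) and also with totals alone, without the filter on low values and with edgeR.

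Tubulins fell as well. Of 13 tested, 7 fell and 1 rose, with a median of −0.32 (−0.54 with totals alone). TUBB4A fell from 31.0, 37 and 37.3 CPM to 16.5, 20.7 and 16.1 CPM (−0.74, SE 0.13), TUBA4A by 0.71, TUBB2A by 0.56 and TUBE1 by 0.55. The groups did not overlap in TUBB4A. The abundant TUBA1B and TUBB stood at −0.16 and −0.03 without a call. The rise of TUBD1 (0.51) was not called without control replicate 2, control replicate 3, siRNA B replicate 1 or siRNA B replicate 3 (adjusted p up to 0.10).

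**Figure D4:**
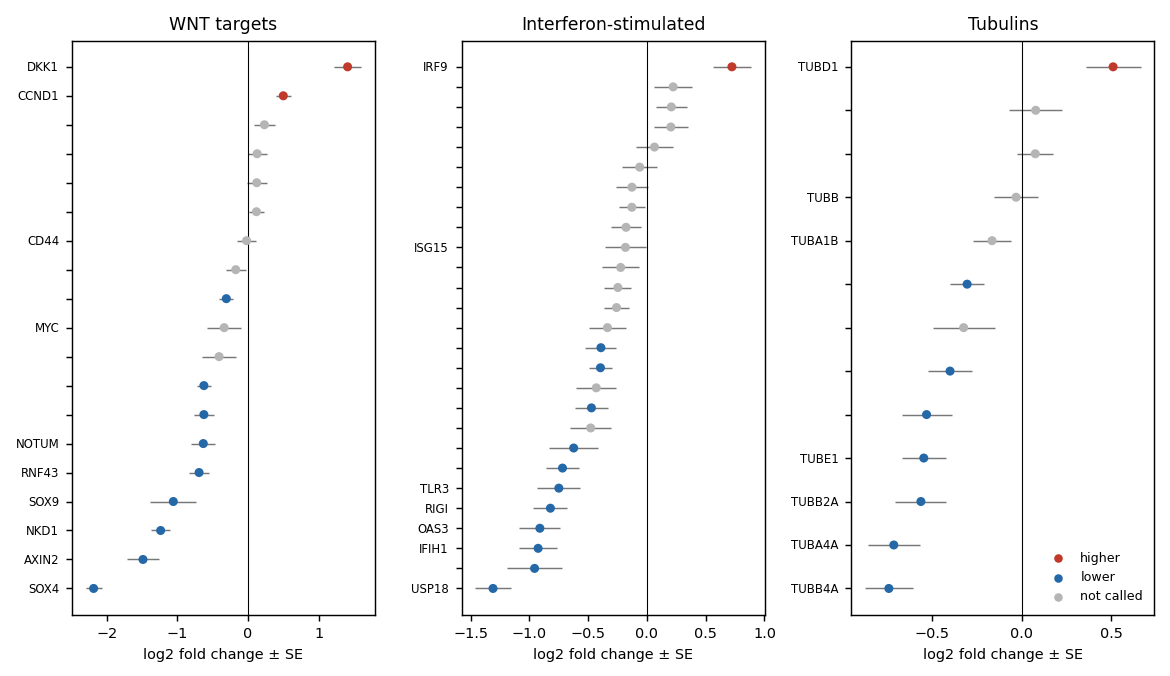
Log2 fold change of siRNA B against control with its SE for the tested members of the WNT, interferon and tubulin lists, with names for those the text gives, red for called higher, blue for called lower and grey for not called. The called members lie mostly to the left of 0, with 9, 11 and 7 called lower, and DKK1 stands apart at 1.41.

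Genes of proliferation were called in both directions. In DNA replication, 6 of 45 rose and 10 fell (median −0.02, −0.23 with totals alone, where 0 rose and 16 fell), and 3 rose without control replicate 2. Beside RPA1, the factor E2F1 fell from 36.3, 35.5 and 35.3 CPM to 17.3, 9.73 and 15.9 CPM (−1.09, SE 0.18), the cyclin CCNE1 by 0.78 and MCM2 by 0.70, while PCNA, CDC6 and MCM5 stood at 0.28, 0.00 and 0.03 without a call. In mitosis, 4 of 38 rose and 5 fell (median 0.04, −0.17 with totals alone), but 10 rose without siRNA B replicate 2 and 1 without control replicate 2. BIRC5, which encodes survivin, fell from 208, 186 and 183 CPM to 78.1, 49.9 and 75.3 CPM (−1.31, SE 0.15), whereas CCNB1 and MKI67 stood at 0.16 and 0.03 without a call. Of 17 cyclins, kinases and inhibitors of G1, 3 rose and 5 fell (median −0.05, −0.27 with totals alone), but the number that fell was 2 or 3 when any library was left out. Besides CDC34, CDKN1C fell by 0.90 from 7.17 ± 1.28 to 3.37 ± 0.463 CPM. RBL2, a pocket protein, stood at −0.77 with overlapping groups and lost its call without control replicate 2, control replicate 3, siRNA B replicate 1 or siRNA B replicate 3 (adjusted p up to 0.099).

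Regulators of cell death changed in both directions. In the list of the STAT3 pathway and the BCL2 family, 6 of 26 rose and 7 fell (median −0.08, −0.28 with totals alone, where 5 rose and 12 fell). BAD, a death promoter kept in check by survival kinases, fell from 26.0, 25.9 and 22.8 CPM to 5.60, 3.31 and 5.03 CPM (−2.02, SE 0.19), and BAK1, a pore former, by 1.24. BCL2L1, which encodes BCL-XL, fell from 301, 340.1 and 284 CPM to 170.5, 143 and 151 CPM (−0.78, SE 0.09), and STAT3 fell by 0.58. The groups lay apart in each of these genes. PIM1, a kinase and STAT target, rose by 1.36 from 10.4 ± 0.175 to 28.4 ± 2.19 CPM, and MCL1 stood at 0.01 without a call.

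Genes of the cytoskeleton and of adhesion also had calls in both directions. Of 33 actin genes, 11 rose and 8 fell (median 0.15, −0.06 with totals alone, where 5 rose and 14 fell). Beside the cross-linkers FLNA and ACTN4, the Arp2/3 subunit ARPC1B fell by 0.96, vinculin (VCL) by 0.51 and zyxin (ZYX) by 0.48. The GTPase RHOA rose from 663, 623 and 661 CPM to 1067, 994 and 1002 CPM (0.87, SE 0.12) and the small proteins PFN1 and MYL6 rose by 0.64 and 0.62. Of 17 integrin and laminin genes, 8 rose and 5 fell (median 0.41, 0.20 with totals alone), while 2 fell without control replicate 2 and 3 without control replicate 3, siRNA B replicate 1 or siRNA B replicate 3. The laminin chain LAMB3 rose from 74.0, 52.8 and 59.6 CPM to 163, 118 and 130.2 CPM (1.34, SE 0.16) and ITGB1 by 1.14, whereas the tensin TNS4 fell by 1.86 from 44.1 ± 10.7 to 11.2 ± 1.07 CPM and ITGA2 by 1.04. Of 23 junction and polarity genes, 8 rose and 4 fell (median 0.16, −0.05 with totals alone), and 5 rose without control replicate 1, control replicate 3 or siRNA B replicate 3. DLG1 rose by 0.72 beside PARD6B, while CTNNB1 was among those that fell. Of 14 keratin and desmosome genes, 4 rose and 1 fell (median 0.32, 0.11 with totals alone), with the desmocollin DSC2 rising from 22.6, 31.3 and 29.5 CPM to 79.6, 127 and 64.2 CPM (1.82, SE 0.25) and KRT23 falling by 0.88.

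Autophagy and lysosome genes had calls in both directions. Of 25 autophagy genes, 6 rose and 4 fell (median 0.03, −0.19 with totals alone). ATG12, the ubiquitin-like conjugator, rose from 327, 311 and 278 CPM to 660.0, 698 and 705 CPM (1.38, SE 0.10), the cargo receptor SQSTM1 from 387, 269 and 349 CPM to 738, 485 and 658 CPM (1.11, SE 0.17) and MAP1LC3B by 0.89. ATG16L1, which places that conjugate on membranes, fell by 0.82 from 56.7 ± 1.23 to 31.6 ± 1.27 CPM. RB1CC1 stood at 0.88 and lost its call without control replicate 2, control replicate 3 or siRNA B replicate 3 (adjusted p up to 0.12). Of 33 lysosome genes, 10 rose and 5 fell (median 0.04, −0.16 with totals alone, where 6 rose and 10 fell), and 3 fell without control replicate 2, control replicate 3 or siRNA B replicate 2. The proton pump subunit ATP6V1A rose by 0.71 and the factor TFE3 by 0.69, while ATP6V0D1 fell by 0.95, the galactosidase GLB1 by 0.96 and the sialidase NEU1 by 0.82.

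The RNA interference machinery, through which an siRNA acts, had calls in both directions. Of 14 genes, 6 rose and 2 fell (median 0.14, −0.06 with totals alone, where 2 rose and 4 fell). Beside AGO1 and AGO3, the Argonaute partner TNRC6A rose by 0.70 and TNRC6C fell by 0.83, from 35.1 ± 3.12 to 19.3 ± 1.15 CPM. AGO2, the Argonaute that cleaves targets, and DICER1 stood at 0.14 and 0.03 without a call. Of 17 genes of Staufen and nonsense-mediated decay, 4 rose and 3 fell (median 0.08, −0.13 with totals alone), with the helicase UPF1 falling by 0.77 and STAU1 at 0.32, called higher. Of 32 splicing factors, 8 rose and 2 fell (median 0.13, −0.08 with totals alone), while 4 rose without control replicate 2, and 5 without siRNA B replicate 1, without siRNA B replicate 3 or after correction for GC content. SRSF4 and HNRNPUL1 each rose by 0.66, and HNRNPA0 fell by 0.77 from 158 ± 2.88 to 92.3 ± 2.40 CPM. Of 5 nuclear lncRNAs, 3 rose and 0 fell (median 0.40, 0.20 with totals alone), with NEAT1, the scaffold of paraspeckles, rising by 1.14 beside MALAT1.

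The remaining lists are given by their counts and medians. Of 20 PP1 and PP2A subunits, 5 rose and 5 fell (median 0.05, −0.16 with totals alone), and 2 rose without control replicate 3 and 3 without siRNA B replicate 1. PPP2R1A, the PP2A scaffold, fell by 0.76. Of 10 replication-dependent histone genes, whose mRNAs mostly lack the poly(A) tail selected for here, 4 rose and 0 fell (median 0.35, 0.24 with totals alone), and 2 rose without siRNA B replicate 1. Cholesterol synthesis counted 1 risen and 6 fallen of 24 (median −0.13, −0.34 with totals alone), and its regulator SREBF2 fell by 0.82. Fatty acid synthesis counted 1 risen and 2 fallen of 12 (median 0.01, −0.21 with totals alone). Proteasome subunits counted 6 risen and 2 fallen of 38 (median 0.10, −0.11 with totals alone), and 3 rose without control replicate 2, siRNA B replicate 1 or siRNA B replicate 3. Methionine salvage and polyamine synthesis counted 3 risen and 4 fallen of 17 (median 0.05, −0.15 with totals alone), with APIP, which acts upstream of ADI1 in the same pathway, falling by 0.77. The rising count there was 1 without control replicate 1, control replicate 2, siRNA B replicate 1 or siRNA B replicate 3. ARF GTPases and coat proteins counted 6 risen and 6 fallen of 30 (median 0.04, −0.17 with totals alone). Of 153 zinc finger genes of chromosome 19, 9 rose and 14 fell (median −0.10, −0.28 with totals alone, where 2 rose and 41 fell), or 5.88% and 9.15%. Without control replicate 3, 4 of these rose and 8 fell, and without control replicate 2, 3 rose. After the correction for GC content described next, 22 fell.

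Gene classes differed in how often they were called. Protein-coding genes, 11817 in number, were called higher in 16.6% and lower in 19.7%, and the 1406 lncRNAs in 10.0% and 10.7%. By level, the 3432 genes with the highest mean CPM held 28.8% higher and 13.9% lower calls, and the 3433 genes with the lowest 7.63% and 16.5%. By the GC content of the transcript, higher calls went from 21.7% of the 3339 genes poorest in GC to 10.5% of the 3338 richest, and lower calls from 9.19% to 29.2%. Across the 13353 genes with a known GC content, the Spearman correlation of GC content with the log2 fold change was −0.24, a description over genes that share libraries. After correction for GC content in each library, 2252 genes were higher and 2388 lower. List medians after that correction were 0.64 for cytosolic ribosomal proteins, 0.53 for p53 targets, 0.59 for NRF2 genes and −0.30 for WNT targets. Other medians moved as well: that of the iron-sulfur genes went from −0.18 to −0.03, that of the cytosolic heat shock chaperones from 0.12 to −0.03, that of the translation factors from 0.28 to 0.19 and that of the proteasome from 0.10 to 0.03.

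**Figure D5:**
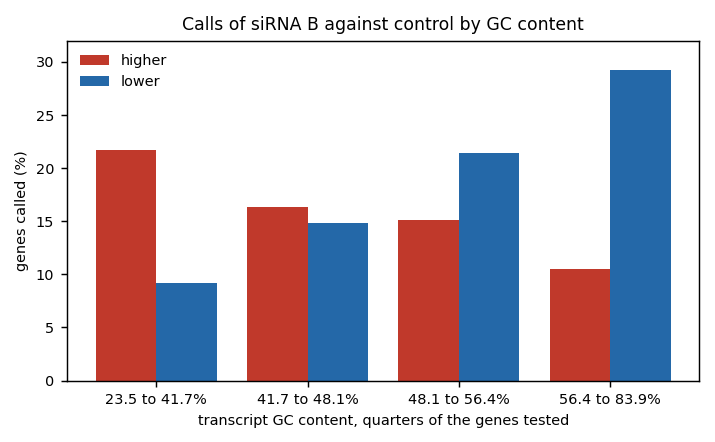
Percentage of genes called higher (red) and lower (blue) after siRNA B in 4 groups of nearly equal size ordered by transcript GC content. Higher calls decline from 21.7% to 10.5% and lower calls climb from 9.19% to 29.2% with GC content.

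Compared directly with siRNA A, 2686 genes were higher in the libraries labelled siRNA B (19.6%) and 2427 lower (17.7%). Scaled by totals only, these counts were 3770 and 1379. The list counts and medians of this comparison are on the TMM scale, and how far they depend on the scale was not tested. The p53 targets were the list furthest above siRNA A, with 17 of 28 higher, 2 lower and a median difference of 0.77 on the log2 scale, and CDKN1A was higher by 0.80. Cytosolic ribosomal proteins were further up after siRNA A, with 32 of 78 lower after siRNA B, 2 higher and a median difference of −0.38. NRF2 genes differed little as a list, with 2 higher, 8 lower and a median of −0.11, although HMOX1 was higher than after siRNA A by 1.43. WNT targets were again lower, 9 of 19, with 2 higher and a median of −0.34. Heat shock chaperones counted 0 higher and 15 lower of 27, with CCT3 lower by 2.19, and cholesterol synthesis 1 higher and 17 lower of 24. The medians of these lists were −0.34 and −0.65 against siRNA A, and 0.12 and −0.13 against control. SNHG5 was lower than after siRNA A by 0.46, at 66.0 ± 6.44 CPM there against 47.5 ± 2.41 CPM.

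Of the cell types a culture could hold, the defining epithelial markers EPCAM, CDH1, KRT8 and KRT18 were present in every library, with the 8 markers found of 10 summing to 2096 to 2183 CPM in the controls and 2393 to 2452 CPM after siRNA B. Of the 7 epithelial markers tested on the TMM scale, 2 were called higher, 1 lower and 4 not called, beside 15.8% and 18.6% of all genes called higher and lower. Fibroblast markers, 5 found of 8, summed to 18.5 to 19.7 CPM in the controls and 8.59 to 9.45 CPM after siRNA B. Of these COL1A1 passed the filter, with 19.5, 18.3 and 19.3 CPM in the controls and 9.40, 9.36 and 8.55 CPM after siRNA B (−0.79). Immune markers, 4 found of 8, summed to 0.868 to 1.76 CPM, and 0 of 5 endothelial markers were in the table. As all libraries come from 1 cell line, these sums are levels of marker genes and no measure of a share of other cells. Contamination was not tested.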

How the data were processed

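RNA from 3 control libraries, 3 libraries of siRNA A and 3 of siRNA B was measured by single-end sequencing. The authors aligned reads with TopHat2 and counted them with HTSeq on GRCh37, per the submitters' processing notes; the use of strand is not given in the sources used here. They deposited CPM values, each a whole number of reads divided by the library total, and 100% of them gave back whole reads (within 0.01 read). Libraries totalled 15566530 to 23277549 reads, so 1 CPM carries a counting error of 20.7% to 25.4%, which covers counting error only. Across genes, r between libraries of a group was 0.983 to 0.994, and no pair matched within sampling noise.

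A row was kept where 3 or more of the 6 libraries reached 1 CPM. CPM was divided by the TMM factor (edgeR 4.0.16; 1.11 to 1.19 in controls, 0.948 to 1.04 in siRNA B), log2(CPM + 1) was taken, which understates the change of low genes, and 1 model with a mean per group over all 9 libraries was fitted with limma 3.58.1 (trended variance, two-sided, Benjamini-Hochberg over 13729 rows). The steps were tested on simulated data. edgeR's quasi-likelihood test on the recovered reads called 4787 genes, 4676 of them among limma's 4722. Before adjustment 6153 genes had p under 0.05. Other settings were library totals, DESeq2 1.42.0 size factors and test, other pseudocounts and filters, a replicate block, correction for GC content and leaving out each library.

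The genes and lists were chosen with earlier results of these data known. The genes named are SNHG5, the 10 largest called rises and falls with groups apart, and up to 4 members of each list by size of change plus the strongest in the less frequent direction; other list members were named for their role after their values were seen. Coordinates and overlaps of genes are those of whole gene spans in the GENCODE annotation lifted to GRCh37, which matched 14871 of 15354 rows. It need not be the annotation the authors counted on. Promoter windows are from RefSeq on GRCh38.p14, the first listed per gene, and were found for 10160 of the genes tested. R 4.3.3, Python 3.11.15, pandas 2.3.3 and matplotlib 3.10.9 were used. Some list members enter the counts and medians and are not reported by name here.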

Additional observations from a re-analysis of the deposited data

Results flagged for a closer look

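Of the 20 genes with the largest rises and falls after siRNA B, 14 differed between the siRNAs when siRNA B was tested against siRNA A in the same limma fit. The differences, siRNA B minus siRNA A on the log2 scale, were positive for HMOX1 (1.43, adjusted p = 0.011), GDF15 (1.22), SEMA6A (0.85) and CYP4F3 (0.60), so these rises were larger after siRNA B. They were negative for the rising genes CCN1 (−1.20), EID3 (−0.77) and PARD6B (−0.45), which stood still higher after siRNA A. Among the falling genes, GLRX5 (−2.43, adjusted p = 2.0e-06) and FLNA (−2.36, adjusted p = 5.5e-06) differed most. GLRX5 had a mean of 82.1 ± 7.64 CPM after siRNA A and FLNA of 875.7 ± 109 CPM, against 14.6 ± 3.11 and 170.5 ± 28.3 CPM after siRNA B. Lower after siRNA B than after siRNA A by less were EIF3B (−1.01), ZBED2 (−0.82), BTG3 (−0.73), CDC34 (−0.64) and SOX4 (−0.56). For ADI1, PPP1CA, CRELD2, MALAT1, ARRDC3 and SMIM15 the difference did not pass the test.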

How the results depend on the processing

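Of 5143 pairs of a result and an alternative setting, over 305 results and 17 settings, 4796 kept their direction and their side of the threshold, or a count within 1.5 times. No called gene among the 207 named changed sign. KCNQ1OT1, not called, went to −0.0006 without siRNA B replicate 3, with values up to 0.89 when other libraries were left out. The scale mattered most. With library totals alone, 954 genes were higher and 4131 lower, so the share of higher calls was 18.8% against 46.0%, and 1379 were lower than after siRNA A. On that scale the members higher numbered 11 for NRF2, 12 for p53, 35 for ribosomal proteins, 9 for translation factors, 6 for lysosome, 5 each for hypoxia and actin, 4 for glycolysis, 3 each for splicing and junctions, 2 each for synthetases and RNA interference, and 1 each for heat shock and phosphatases, and the members lower 18 for interferon genes and 8 for G1. GC correction gave 5 higher for splicing, 7 for keratins and 3 for phosphatases. A 5 CPM filter gave 5 lower of the 16 interferon genes it kept and 2 higher for histones. Fitting the 6 libraries alone gave 3 lower for G1, and DESeq2 on reads 7 higher for keratins. For results other than those of scale and filter the cause was not tested.

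Leaving out 1 library gave 1449 to 2042 genes higher and 2039 to 2390 lower. Counts of members higher ranged from 39 to 71 for ribosomal proteins, 11 to 19 for translation factors, 3 to 9 for heat shock, 3 to 7 for synthetases, 4 to 8 for splicing, 5 to 8 for junctions, 5 to 7 for hypoxia, 2 to 5 for phosphatases and 2 to 4 for histones, and of members lower from 2 to 5 for integrins and 2 to 3 for G1.

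Whether replicate numbers pair the samples was not settled. Deviations from the group means of same-numbered control and siRNA B libraries correlated with r of 0.196, 0.445 and −0.382. Those of other-numbered libraries ranged from −0.643 to 0.675. Deviations within a group are tied to one another, so these values cannot decide it. A block on that number gave more calls, 2776 genes higher and 3028 lower against 2173 and 2549, and 7 keratin genes higher.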
